A study of Mus musculus with 6 samples.

Results

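The 10 genes described here encode growth factor ligands and receptors of 5 families. They are the EGF family ligands Hbegf and Ereg, the PDGF ligands Pdgfa, Pdgfb and Pdgfc with the receptor Pdgfrb, the VEGF ligand Vegfb with the receptor Flt1, and the ligands Igf1 and Hgf. They were chosen by gene symbol among the 54532 genes of the deposited table, and all 10 were found there. The data are 6 RNA-seq libraries of bone marrow-derived macrophages (BMDMs), cells grown from C57BL/6 mouse bone marrow in medium conditioned by L929 cells, a source of M-CSF. The 3 groups of 2 libraries were untreated BMDMs, BMDMs given lipopolysaccharide (LPS), a bacterial membrane component sensed by TLR4, at 100 ng/ml for 2 h, and BMDMs given metformin, a biguanide drug, at 5 mM for 6 h before the same LPS stimulation (Met + LPS). No group received metformin alone, and no source says that the 2 libraries of a group came from separate mice, so p-values measure only the spread between these libraries, which may be technical. Values are TPM, which divide counts by gene length and give every library the same total. The reads behind them, recovered as described for the processing, ranged from 25457020 to 30762763 per library.

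Growth factors of these families are secreted or membrane-bound ligands that bind receptor tyrosine kinases on the same or neighbouring cells and drive growth, survival, migration and repair. HB-EGF and epiregulin activate EGF receptor family members after a protease releases them from the cell surface. PDGF chains pair into dimers that act on mesenchymal cells through PDGF receptors, and VEGF-B binds VEGFR1, the product of Flt1, which monocytes and macrophages also use. Macrophages are a known source of IGF-1, PDGF-B and HB-EGF in healing tissue, and HGF acts on epithelial cells through the receptor Met.

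After LPS, the 3 EGF, PDGF and VEGF genes Hbegf, Pdgfrb and Flt1 rose from under 1 TPM to about 2 TPM. Vegfb, Pdgfc and Hgf stood at 0.494, 0.490 and 0.461 of their untreated mean. Vegfb and Hgf, but not Pdgfc, also passed as lower in limma after a rescaling described below. The median of all genes tested below was also lower after LPS, with a log2 fold change of -0.48. With metformin before LPS, Hbegf stood 2.47-fold above LPS alone, while Flt1 stood 2.05-fold and Pdgfrb 2.14-fold below it in mean TPM. In the tests described below, Hbegf passed the cut-offs on p-value and size, Flt1 only that on p-value, and Pdgfrb neither. Igf1, the most abundant of the 10 transcripts, had nearly the same level in the LPS and the Met + LPS libraries. Ereg was barely detected in any library. The plot of TPM by library shows each of these levels.

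**Figure D1:**
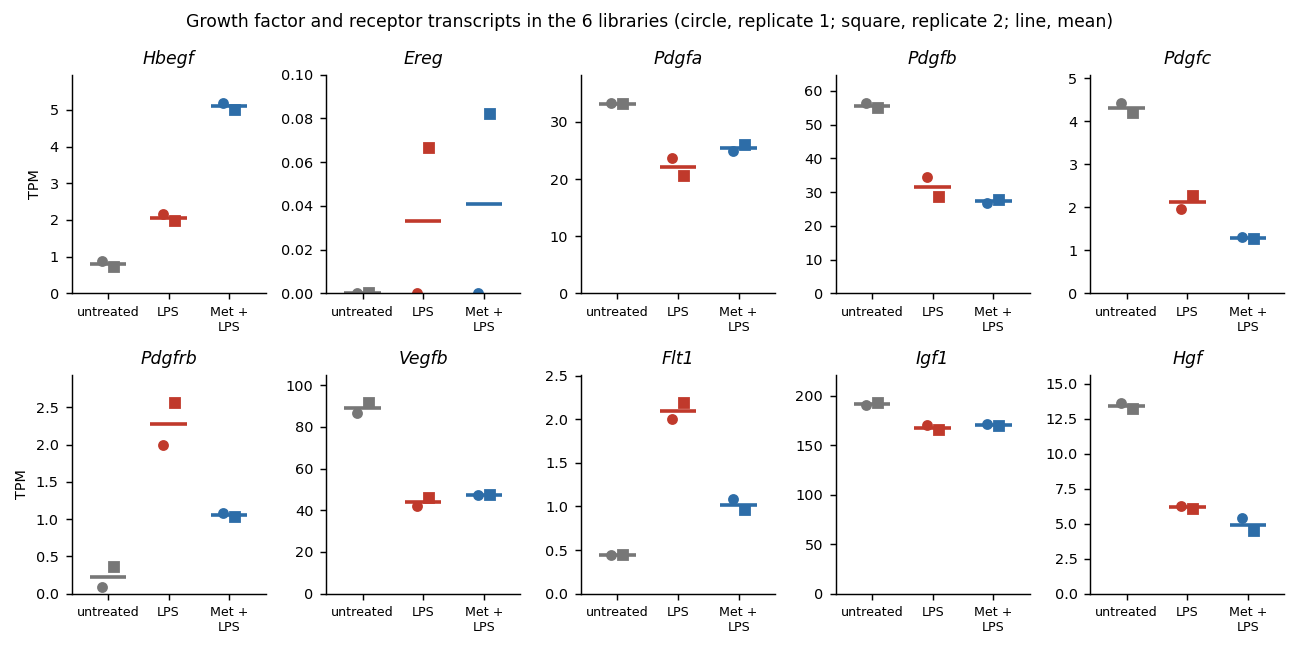
TPM (vertical axes, linear from 0) of the 10 genes in untreated, LPS and Met + LPS BMDMs, with a circle for replicate 1, a square for replicate 2 and a line for the group mean. Hbegf stepped up from 0.796 to 2.06 to 5.09 TPM in group means, while Flt1 and Pdgfrb peaked in the LPS group.

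The macrophage identity of the libraries was visible in all 7 macrophage markers examined (among them Adgre1, Csf1r and Lyz2), which summed to 43710 to 45600 TPM in untreated, 34530 to 35260 TPM in LPS and 28760 to 28880 TPM in Met + LPS libraries. None of the 6 fibroblast markers and none of the 5 T and B cell markers reached 1 TPM in 2 libraries. Of the platelet and dendritic cell markers, 2 of 5 (Pf4 and Ppbp) and 2 of 4 did, with sums over all libraries of 28.3 to 43.9 and 0.469 to 2.13 TPM. Of the 6 neutrophil markers 5 did. The tests below used limma on log2(TPM + 1) with Benjamini-Hochberg adjustment over 12755 genes that had at least 1 TPM in at least 2 libraries, and a gene passed at an adjusted p-value under 0.01. On this scale fold changes of genes with few TPM are understated. For the stricter calls, the study's cut-offs on the absolute log2 fold change were added, 2 between LPS and untreated and 0.7 between Met + LPS and LPS. Of the 10 genes, 9 were tested, and Hbegf, Flt1 and Pdgfrb reached the minimum only through the LPS-treated groups. For a pair of groups of 2 the smallest two-sided exact permutation p-value is 0.333, and the p-values draw on a spread that limma pools over genes.

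The upstream sequence of 4 of the genes is shown because these genes differed between LPS and untreated libraries and their 250 bases before the RefSeq start hold no annotated exon. The sequences are from RefSeq, build GRCm38.p6, written 5′ to 3′ on the gene's strand. Capitals mark matches, on either strand, to the GC box GGGCGG, the TATA box sequence TATAAA, the AP-1 site TGANTCA or the kappaB consensus of NF-κB. Flt1 lies on the minus strand at chr5:147726012-147726261, Vegfb on the minus strand at chr19:6987652-6987901, Pdgfc on the plus strand at chr3:81036166-81036415 and Hgf on the plus strand at chr5:16553245-16553494.
Flt1: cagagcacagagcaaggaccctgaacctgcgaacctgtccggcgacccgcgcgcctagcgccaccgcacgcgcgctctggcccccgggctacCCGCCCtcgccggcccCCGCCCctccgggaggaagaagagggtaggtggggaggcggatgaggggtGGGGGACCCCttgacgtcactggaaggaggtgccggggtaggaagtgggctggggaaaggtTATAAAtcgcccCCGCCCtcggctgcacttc
Vegfb: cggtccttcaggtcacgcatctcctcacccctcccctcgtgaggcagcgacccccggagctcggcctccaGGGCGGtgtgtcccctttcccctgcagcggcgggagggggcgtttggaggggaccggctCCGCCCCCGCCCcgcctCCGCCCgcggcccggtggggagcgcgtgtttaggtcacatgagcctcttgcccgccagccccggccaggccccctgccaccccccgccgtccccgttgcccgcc
Pdgfc: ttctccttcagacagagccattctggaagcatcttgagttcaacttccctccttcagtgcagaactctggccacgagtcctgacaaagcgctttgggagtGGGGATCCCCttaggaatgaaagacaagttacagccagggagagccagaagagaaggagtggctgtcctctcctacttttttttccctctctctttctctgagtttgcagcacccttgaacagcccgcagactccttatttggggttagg
Hgf: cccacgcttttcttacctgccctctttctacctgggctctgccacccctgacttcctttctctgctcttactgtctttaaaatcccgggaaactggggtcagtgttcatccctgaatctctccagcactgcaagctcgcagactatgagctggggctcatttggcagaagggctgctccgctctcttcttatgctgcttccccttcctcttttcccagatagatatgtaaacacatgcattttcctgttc
The Flt1 window, with 70.4% G and C, held a TATA box starting 31 bases before the start, 3 GC boxes and a kappaB match starting 92 bases before it. The Vegfb window was the richest of these in G and C at 76.4% and held 4 GC boxes, some of them adjoining, and none of the other motifs. In Pdgfc, at 50.8% G and C, the single match was a kappaB sequence starting 150 bases before the start, and the Hgf window, also at 50.8%, held no match to these letters. Of 32851 RefSeq windows of this length, 5.93% held a kappaB match, 6.75% an AP-1 match, 32.7% a GC box and 12.4% a TATA box, and their median G and C content was 52.4%. A match is a description of the letters and does not show that a factor binds there. A kappaB match thus stood both before Flt1, which rose with LPS, and before Pdgfc, which was lower in the LPS libraries. RefSeq windows for Igf1 and Pdgfa and a further Hgf window overlap exons of these genes and are not printed. Of these, the Pdgfa windows held GC boxes and a kappaB match, the Igf1 window an AP-1 match and the further Hgf window none. Hbegf, Ereg, Pdgfb and Pdgfrb had no entry among the RefSeq windows available here.

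Hbegf (ENSMUSG00000024486, chromosome 18, 36504929 to 36515805, minus strand, GRCm38) encodes heparin-binding EGF-like growth factor, a membrane-anchored ligand of EGFR and ErbB4. Untreated libraries had 0.887 and 0.706 TPM, LPS libraries had 2.16 and 1.96 TPM and Met + LPS libraries had 5.18 and 5.00 TPM. The 3 groups did not overlap, and both Met + LPS libraries were the highest of the 6. Between 24 and 32 reads stood behind the untreated values and between 186 and 210 behind the Met + LPS values. LPS vs. untreated gave a log2 fold change of 0.77 (SE 0.11, adjusted p-value 5.3e-04 in limma with Benjamini-Hochberg adjustment). Met + LPS vs. LPS gave one of 0.99 (SE 0.11, 95% interval 0.73 to 1.26, adjusted p-value 5.6e-04 in limma with Benjamini-Hochberg adjustment), past both cut-offs. Hbegf passed this second comparison in all 13 alternatives that tested it, with log2 fold changes between 0.95 and 1.31. Against untreated BMDMs the Met + LPS mean was 6.39-fold higher. The 6 neutrophil markers summed to 29.4 to 32.6 TPM in untreated and 26.3 to 27.6 TPM in LPS libraries. Their sum was also highest in Met + LPS libraries, at 42.8 to 45.2 TPM. S100a8, S100a9 and Ngp were highest there, whereas Elane (15.2 and 16.1 TPM) and Mpo were not above both untreated libraries. The fibroblast and endothelial marker sums were highest in Met + LPS too, at 0.847 to 0.879 and 96.1 to 101 TPM. The part of these cell types in the Hbegf values was not tested.

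Ereg (ENSMUSG00000029377, chromosome 5, 91074622 to 91093646, plus strand) encodes epiregulin, another EGF family ligand. It was at 0 TPM in both untreated libraries, at 0 and 0.0664 TPM after LPS and at 0 and 0.0821 TPM after metformin and LPS. These values rest on 0, 0, 0, 2, 0 and 3 reads in the same order, at or under the floor of 3 reads that a count of 0 allows. Ereg was under the minimum for testing, and with no minimum its adjusted p-values in limma were 0.475 or higher in the 3 comparisons, so no difference was detectable at this depth.

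Pdgfa (ENSMUSG00000025856, chromosome 5, 138976014 to 138997370, minus strand) encodes the A chain of PDGF. Its level was 33.3 and 33.1 TPM without treatment, 23.7 and 20.5 TPM after LPS and 24.9 and 25.9 TPM after metformin and LPS. Both LPS libraries lay below both Met + LPS libraries, which in turn lay below the untreated ones. Pdgfa was lower with LPS by a log2 fold change of -0.57 (SE 0.07, adjusted p-value 2.8e-04 in limma with Benjamini-Hochberg adjustment), close to the -0.48 of the median tested gene. A rescaling that sets the median between-library ratio of genes to no change left -0.06 for Pdgfa (adjusted p-value 0.457 in limma). Metformin before LPS gave 0.20 relative to LPS (95% interval 0.03 to 0.37, adjusted p-value 0.0597 in limma), which did not pass. The antisense gene 6330403L08Rik overlaps 26.1% of the Pdgfa exon length and had between 2.97 and 7.61 TPM. The sources do not say whether counting used the strand, so part of the Pdgfa reads could belong to that gene.

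Pdgfb (ENSMUSG00000000489, chromosome 15, 79995874 to 80014977, minus strand) encodes the B chain, a ligand of both PDGF receptors and a recruiter of pericytes. Without treatment Pdgfb had 56.4 and 54.9 TPM, after LPS 34.6 and 28.6 TPM, and after metformin and LPS 26.9 and 27.8 TPM. The untreated libraries were the highest, and the LPS libraries spread more (SD 4.23 TPM, n = 2) than the Met + LPS libraries (SD 0.646 TPM, n = 2). Pdgfb was lower with LPS by a log2 fold change of -0.80 (SE 0.08, adjusted p-value 1.2e-04 in limma with Benjamini-Hochberg adjustment) which became -0.29 after the rescaling (adjusted p-value 0.0189 in limma). The difference between Met + LPS and LPS was -0.20 (95% interval -0.40 to 0.01, adjusted p-value 0.102 in limma), and the groups did not overlap. Without LPS replicate 2 this difference was -0.33 and passed (adjusted p-value 0.00757 in limma).

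Pdgfc (ENSMUSG00000028019, chromosome 3, 81036416 to 81214040, plus strand) encodes PDGF-C, a ligand that is secreted inactive and cut by proteases such as tissue plasminogen activator. Untreated BMDMs had 4.42 and 4.20 TPM, LPS-treated BMDMs 1.96 and 2.26 TPM, and BMDMs given both agents 1.30 and 1.27 TPM. The 3 groups did not overlap and stepped down in that order. Pdgfc had a log2 fold change of -0.77 for LPS vs. untreated (SE 0.10, adjusted p-value 4.2e-04 in limma with Benjamini-Hochberg adjustment), and after the rescaling it was -0.37 (adjusted p-value 0.0185 in limma). Between Met + LPS and LPS it was -0.45 (SE 0.10, adjusted p-value 0.0128 in limma), just short of the cut-off. Against untreated BMDMs the Met + LPS mean was 3.36-fold lower, with a log2 fold change of -1.22 that passed (adjusted p-value 4.3e-05 in limma).

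Pdgfrb (ENSMUSG00000024620, chromosome 18, 61045150 to 61085061, plus strand) encodes PDGF receptor beta, best known from pericytes and fibroblasts. Its level was 0.0960 and 0.357 TPM in untreated, 1.99 and 2.55 TPM in LPS and 1.09 and 1.03 TPM in Met + LPS libraries. The 3 groups did not overlap, with the LPS libraries highest. Only 4 and 14 reads stood behind the untreated values, against 83 to 102 in the LPS libraries and 45 to 50 in the Met + LPS libraries. Pdgfrb had a log2 fold change of 1.42 for LPS vs. untreated (SE 0.17, adjusted p-value 2.1e-04 in limma with Benjamini-Hochberg adjustment), and voom on the recovered reads, which works on reads in place of TPM + 1, gave 3.54 (SE 0.42). Relative to LPS alone, Met + LPS gave -0.66 (95% interval -1.07 to -0.26, adjusted p-value 0.0175 in limma), which did not pass, and voom gave -1.08 (adjusted p-value 5.1e-04). In bulk RNA, fewer cells of a type and less RNA per cell cannot be told apart. Of 6 pericyte and smooth muscle markers, 2 (Acta2 and Cspg4) reached 1 TPM in 2 libraries and Rgs5 was at 0 in every library. Their sum was 3.08 to 3.64 TPM in untreated, 2.12 to 2.50 TPM in LPS and 3.47 to 3.73 TPM in Met + LPS libraries. Its genes had different orders. Cspg4 was lowest in LPS libraries (0.738 and 0.747 TPM), while Tagln, like Pdgfrb, was highest there (0.793 and 0.827 TPM). Acta2 overlapped between untreated and LPS libraries and was highest in Met + LPS. The 6 fibroblast markers summed to between 0.409 and 0.879 TPM, and the part of either cell type in the Pdgfrb values was not tested.

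Vegfb (ENSMUSG00000024962, chromosome 19, 6982473 to 6987651, minus strand) encodes VEGF-B, a ligand of VEGFR1. Untreated BMDMs had 86.6 and 91.2 TPM, while 42.0 and 45.9 TPM were found after LPS and 47.5 and 47.2 TPM after metformin and LPS. Both treated groups lay far below the untreated one. LPS vs. untreated gave a log2 fold change of -1.001 (SE 0.05, adjusted p-value 5.1e-06 in limma with Benjamini-Hochberg adjustment), the smallest adjusted p-value of the 9 genes, and -0.48 after the rescaling, where it still passed. Between Met + LPS and LPS the log2 difference was 0.11 (95% interval -0.02 to 0.23, adjusted p-value 0.147 in limma), and the groups did not overlap.

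Flt1 (ENSMUSG00000029648, chromosome 5, 147561604 to 147726011, minus strand) encodes VEGFR1, the receptor of VEGF-A, VEGF-B and placental growth factor. Flt1 had 0.438 and 0.444 TPM in untreated, 2.00 and 2.18 TPM in LPS and 1.09 and 0.954 TPM in Met + LPS libraries. The 3 groups did not overlap and the Met + LPS values lay between the others. Between 43 and 45 reads stood behind the untreated values and between 206 and 215 behind the LPS values. Flt1 rose with LPS by a log2 fold change of 1.101 (SE 0.13, adjusted p-value 2.0e-04 in limma with Benjamini-Hochberg adjustment), and voom gave 2.25. With metformin before LPS it was lower than with LPS alone by -0.61 (SE 0.13, adjusted p-value 0.00828 in limma with Benjamini-Hochberg adjustment), which passed the p-value cut-off but not that on size. Flt1 met the minimum for testing through the LPS libraries, where it was highest, so the direction of this call is no support. This call passed in 5 of 13 alternatives and was lost on leaving out any of the 4 libraries compared, with adjusted p-values between 0.0269 and 0.0458 in limma. Of 6 endothelial markers, 2 (Kdr and Vwf) reached 1 TPM in 2 libraries, Emcn was at 0 in all 6, and Cdh5 and Pecam1 stayed below 0.3 TPM. Their sum was 72.7 to 75.3 TPM in untreated, 53.5 to 55.8 TPM in LPS and 96.1 to 101 TPM in Met + LPS libraries. Nearly all of it came from Kdr and Vwf, so its order across the groups is that of these 2 genes. The part of endothelial cells in the Flt1 values was not tested.

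Igf1 (ENSMUSG00000020053, chromosome 10, 87858265 to 87937042, plus strand) encodes insulin-like growth factor 1. At 190.4 and 192 TPM untreated libraries were the highest, with 170.0 and 166 TPM after LPS and 171 and 169.5 TPM after metformin and LPS. The LPS and Met + LPS libraries overlapped. Igf1 had a log2 fold change of -0.19 for LPS vs. untreated (SE 0.03, adjusted p-value 0.00115 in limma with Benjamini-Hochberg adjustment), but after the rescaling it had 0.34 (adjusted p-value 8.0e-05 in limma). Its direction with LPS therefore depends on the scaling, and the call as deposited was lost without untreated replicate 2 (adjusted p-value 0.0113 in limma). Met + LPS and LPS differed by 0.02 (95% interval -0.05 to 0.10, adjusted p-value 0.622 in limma), on a basis of at least 11973 reads per library.

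Hgf (ENSMUSG00000028864, chromosome 5, 16553495 to 16620152, plus strand) encodes hepatocyte growth factor, which is made by stromal and myeloid cells. Its level was 13.6 and 13.2 TPM in untreated, 6.25 and 6.08 TPM in LPS and 5.41 and 4.47 TPM in Met + LPS libraries. The groups did not overlap and the Met + LPS libraries were the lowest. Hgf fell with LPS, with a log2 fold change of -1.005 (SE 0.09, adjusted p-value 5.4e-05 in limma with Benjamini-Hochberg adjustment), or -0.53 after the rescaling, where it still passed. A further difference of -0.28 separated Met + LPS from LPS (95% interval -0.49 to -0.06, adjusted p-value 0.0429 in limma), which did not pass, and voom gave -0.34 (adjusted p-value 0.00607).

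Ordered by TPM, the untreated libraries ran Igf1, Vegfb, Pdgfb, Pdgfa, Hgf, Pdgfc, Hbegf, Flt1, Pdgfrb and Ereg, and no neighbours in this order overlapped. In the LPS libraries the first 5 kept their places. Pdgfrb, Pdgfc, Flt1 and Hbegf came next with means from 2.06 to 2.27 TPM, and each overlapped its neighbour. In the Met + LPS libraries Hbegf stood beside Hgf, at 5.09 ± 0.131 and 4.94 ± 0.670 TPM (SD, n = 2 each), with overlapping libraries. Pdgfrb and Flt1 also overlapped there, at 1.06 ± 0.0392 and 1.02 ± 0.0944 TPM (SD, n = 2 each). Hbegf thus moved from the seventh place in untreated BMDMs to the fifth after metformin and LPS.

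Counted together for LPS vs. untreated, 3 of the 9 tested genes passed as higher (Hbegf, Pdgfrb and Flt1) and 6 as lower (Pdgfa, Pdgfb, Pdgfc, Vegfb, Igf1 and Hgf). The 3 higher genes were under 1 TPM in both untreated libraries and entered the test only through the LPS-treated groups, so their direction is no support. Of all 12755 tested genes 16.2% passed as higher and 60.1% as lower, so a majority of lower calls was also the pattern of the whole table. Those shares stood at 2069 higher and 7665 lower genes as deposited and at 3908 (30.6%) and 3522 (27.6%) after the rescaling. With the rescaling the 9 genes gave 4 higher calls, with Igf1 added, and 2 lower calls, Vegfb and Hgf. None of the 9 passed both cut-offs in limma, against 6.08% of all tested genes, and all 9 had an unadjusted p-value under 0.05 without any of them reaching a log2 fold change of 2. In voom 2 of the 9, Pdgfrb and Flt1, passed both, against 12.5% of all genes in voom. Relative to the median gene, Hbegf, Pdgfrb and Flt1 stood 1.25, 1.899 and 1.58 higher on the log2 scale, and Vegfb and Hgf stood 0.52 lower.

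**Figure D2:**
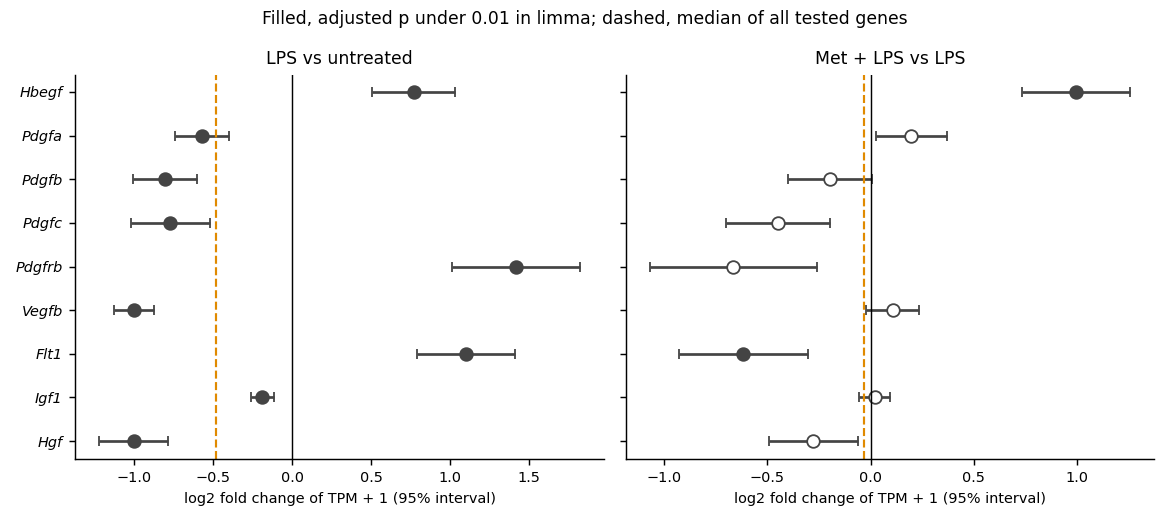
Log2 fold change of TPM + 1 (horizontal axes) with its 95% interval for the 9 tested genes in LPS vs. untreated (left) and Met + LPS vs. LPS (right), filled where the adjusted p-value in limma was under 0.01, with a dashed line at the median of all tested genes (-0.48 and -0.03). On the right only Hbegf (0.99) and Flt1 (-0.61) are filled.

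Met + LPS vs. LPS had 1 of the 9 genes pass as higher (Hbegf) and 1 as lower (Flt1), where 14.5% of all tested genes passed as higher and 18% as lower. Flt1 reached 1 TPM in both LPS libraries but not in both Met + LPS libraries (1.09 and 0.954 TPM). It met the minimum through the LPS group, where it was highest, so its direction is no support. Past both cut-offs there was 1, Hbegf, and 8.28% of all tested genes. In voom on recovered reads 1 of the 9 passed as higher and 4 as lower, adding Pdgfc, Hgf and Pdgfrb, where 18.7% of all genes in voom passed as higher and 22.9% as lower. Past both cut-offs voom had 4 of the 9 and 11.1% of all genes. The median tested gene lay at -0.03 in this comparison, so the scaling moved these values little, and Hbegf had 97.6% of tested genes below it. For Pdgfb, Pdgfa, Vegfb, Pdgfc, Pdgfrb, Hgf and Igf1 a p-value short of the cut-off does not show that metformin left them as they were.

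For Met + LPS vs. untreated, 2 of the 9 genes passed as higher (Hbegf and Pdgfrb) and 6 as lower, against 16.3% and 58.8% of all tested genes. Hbegf and Pdgfrb entered the test only through the LPS-treated groups, so their direction is no support here either. This comparison shares its untreated libraries with LPS vs. untreated. Hbegf had a log2 fold change of 1.76 (SE 0.11, adjusted p-value 9.6e-06 in limma with Benjamini-Hochberg adjustment). Pdgfrb, at 0.76, passed (adjusted p-value 0.00486 in limma) and Flt1, at 0.49, did not (adjusted p-value 0.0107 in limma). Among the lower genes Hgf (-1.28), Pdgfc (-1.22), Pdgfb (-1.001) and Vegfb (-0.89) had the largest fold changes. Pdgfa (-0.37) and Igf1 (-0.17) passed as deposited but stood at 0.15 and 0.37 after the rescaling. Without untreated replicate 1 or Met + LPS replicate 2 the calls numbered 5, with Pdgfa, Igf1 and Pdgfrb lost. They numbered 6 without untreated replicate 2, where Pdgfa and Igf1 were lost, and without Met + LPS replicate 1, where Pdgfa and Pdgfrb were lost.

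**Figure D3:**
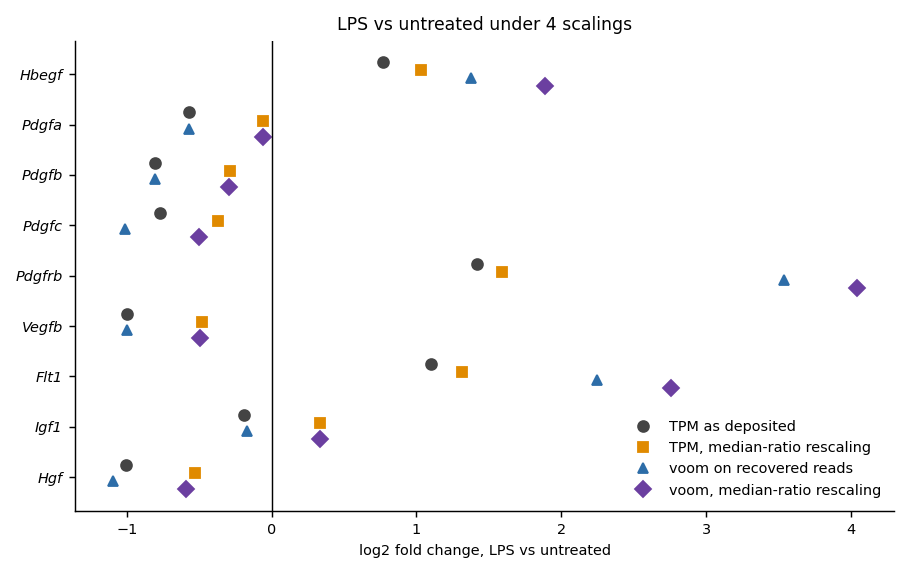
Log2 fold change for LPS vs. untreated (horizontal axis) of the 9 tested genes with TPM as deposited, with TPM rescaled by the median ratio, with voom on recovered reads and with voom after the rescaling. Igf1 lies at -0.19 as deposited and at 0.34 after the rescaling, while Pdgfrb lies at 1.42 on the TPM + 1 scale and at 3.54 in voom.

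The partners of these genes came from lists of 54 further genes of the 5 families, all of them in the table and 25 of them tested. For LPS vs. untreated 13 of the 25 passed as higher and 7 as lower (15 and 4 after the rescaling), with a median log2 fold change of 0.54, where 16.2% of all tested genes passed as higher and 60.1% as lower (30.6% and 27.6% after the rescaling). Of the 13 higher calls 6 (Areg, Igfbp7, Met, Pgf, Plat and Spint2) were under 1 TPM in both untreated libraries and entered the test only through the LPS-treated groups, so their direction is no support. In the metformin comparison, Met + LPS vs. LPS, 7 passed as higher and 6 as lower, with a median of -0.11, where 14.5% of all tested genes passed as higher and 18% as lower. The counts of single families that follow are parts of these and are read against the same shares. In the EGF family list 8 of 19 genes were tested, of which 5 passed as higher and 2 as lower for LPS vs. untreated, and 1 and 2 for Met + LPS vs. LPS.

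Areg, which encodes the EGFR ligand amphiregulin, was at 0 TPM in both untreated libraries, at 1.41 and 1.69 TPM after LPS and at 5.01 and 5.86 TPM after metformin and LPS. Its LPS mean was at least 4.49-fold higher than the untreated level, taking a floor of 3 reads per library, and Areg had the order of Hbegf across the groups. Its log2 fold change of 1.34 for Met + LPS vs. LPS passed both cut-offs (adjusted p-value 3.5e-04 in limma with Benjamini-Hochberg adjustment). Errfi1, which encodes an inhibitor of EGFR signalling, went the other way between these groups. It had 8.41 and 8.15 TPM in the untreated, 294 and 272 TPM in the LPS and 79.4 and 67.9 TPM in the Met + LPS libraries, with log2 fold changes of 4.94 and -1.93 that both passed both cut-offs. Adam17, the protease that sheds HB-EGF, rose with LPS (0.75, adjusted p-value 3.6e-06 in limma). Rhbdf2, a partner that ADAM17 needs to reach the cell surface, also rose with LPS (2.29), while its relative Rhbdf1 rose with LPS (0.99) and was lower with Met + LPS (-0.77, adjusted p-value 0.00129 in limma), a call lost without LPS replicate 1 (adjusted p-value 0.0108). Between Met + LPS and LPS neither Adam17 (-0.11) nor Rhbdf2 (-0.17, adjusted p-value 0.0108) passed in limma, and Rhbdf2 did in voom (adjusted p-value 7.9e-04). Of the HB-EGF receptors, Egfr had between 0.539 and 0.762 TPM and was not tested, and Erbb4 had 0 TPM in all 6 libraries.

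In the PDGF list 2 of 5 genes were tested and both passed as higher for LPS vs. untreated, Plat after reaching the minimum only through the LPS-treated groups. Plat, which encodes tissue plasminogen activator, had 0.0632 and 0.0447 TPM in the untreated, 19.4 and 17.3 TPM in the LPS and 11.9 and 12.1 TPM in the Met + LPS libraries. Its log2 fold changes were 4.20 between LPS and untreated and -0.57 between Met + LPS and LPS (adjusted p-value 0.00169 in limma), so the gene of this protease rose with LPS while Pdgfc was lower there. The second of these calls was lost without LPS replicate 1 or either Met + LPS library. Pdgfra, the gene of the other PDGF receptor, had between 0.0451 and 0.0917 TPM and was not tested.

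The VEGF list had 6 of 8 genes tested, of which 3 passed as higher and 2 as lower for LPS vs. untreated and 3 and 1 between Met + LPS and LPS. Vegfa had 43.5 and 37.9 TPM in the untreated, 5.27 and 5.08 TPM in the LPS and 19.7 and 17.9 TPM in the Met + LPS libraries. Its log2 fold changes of -2.75 and 1.68 (adjusted p-values 3.7e-07 and 2.5e-05 in limma with Benjamini-Hochberg adjustment) passed both cut-offs, whereas Vegfb, lower with LPS too, did not pass for Met + LPS vs. LPS. Pgf, which encodes placental growth factor, rose with LPS (2.19) and had -0.08 for Met + LPS vs. LPS. Among the receptors, Kdr (VEGFR2) had 26.9 and 25.6 TPM in the untreated, 21.04 and 23.3 TPM in the LPS and 33.7 and 32.1 TPM in the Met + LPS libraries. Kdr passed as higher for Met + LPS vs. LPS (0.55, adjusted p-value 6.4e-04 in limma), the opposite direction to Flt1, while its LPS value was -0.23 as deposited (adjusted p-value 0.0109 in limma) and 0.27 after the rescaling. Nrp1, a VEGF co-receptor, was lower with LPS (-0.90, or -0.38 after the rescaling) and higher in Met + LPS than in LPS (0.34). Nrp2 of the same list went the other way in both comparisons (1.28 and -0.46, adjusted p-values 2.3e-07 and 1.1e-04 in limma). Its group means were 180, 440 and 320 TPM in untreated, LPS and Met + LPS libraries.

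The IGF list had 6 of 14 genes tested, with 1 higher and 3 lower between LPS and untreated and 2 and 2 between Met + LPS and LPS. Igf1r, the receptor of IGF-1, had 2.63 and 2.63 TPM in the untreated, 2.23 and 2.00 TPM in the LPS and 1.21 and 0.915 TPM in the Met + LPS libraries. Its log2 fold change for Met + LPS vs. LPS was -0.60 (adjusted p-value 0.0074 in limma). This call passed in only 6 of 13 alternatives. It was lost on leaving out any of the 4 libraries compared and with the replicate block (adjusted p-value 0.0106 in limma). The interval for the ligand Igf1 in the same comparison reached no further than 0.10. Igfbp4, which encodes an IGF-binding protein, had 138 and 148 TPM in the untreated, 89.8 and 81.7 TPM in the LPS and 34.2 and 34.6 TPM in the Met + LPS libraries. It was lower in Met + LPS than in LPS by -1.29 on the log2 scale (adjusted p-value 2.0e-05 in limma). Irs2, an adaptor of the insulin and IGF-1 receptors, passed as higher for Met + LPS vs. LPS (0.76, adjusted p-value 0.00486 in limma). This call passed in only 8 of 14 alternatives. Among the losses were the fits without LPS replicate 1, LPS replicate 2 or Met + LPS replicate 1.

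In the HGF list 3 of 8 genes were tested, of which 2, Met and Spint2, passed as higher for LPS vs. untreated after reaching the minimum only through the LPS-treated groups. Between Met + LPS and LPS none of the 3 passed in limma, 2 (Met and Spint2) had an unadjusted p-value under 0.05, and both passed in voom. Met, the receptor of HGF, had 0.411 and 0.673 TPM in the untreated, 7.60 and 7.30 TPM in the LPS and 9.11 and 9.39 TPM in the Met + LPS libraries. Its log2 fold change for LPS vs. untreated was 2.46 (adjusted p-value 1.9e-06 in limma with Benjamini-Hochberg adjustment), opposite in direction to its ligand Hgf. Between Met + LPS and LPS it was 0.28 (adjusted p-value 0.0666 in limma), with both Met + LPS libraries above both LPS libraries.

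**Figure D4:**
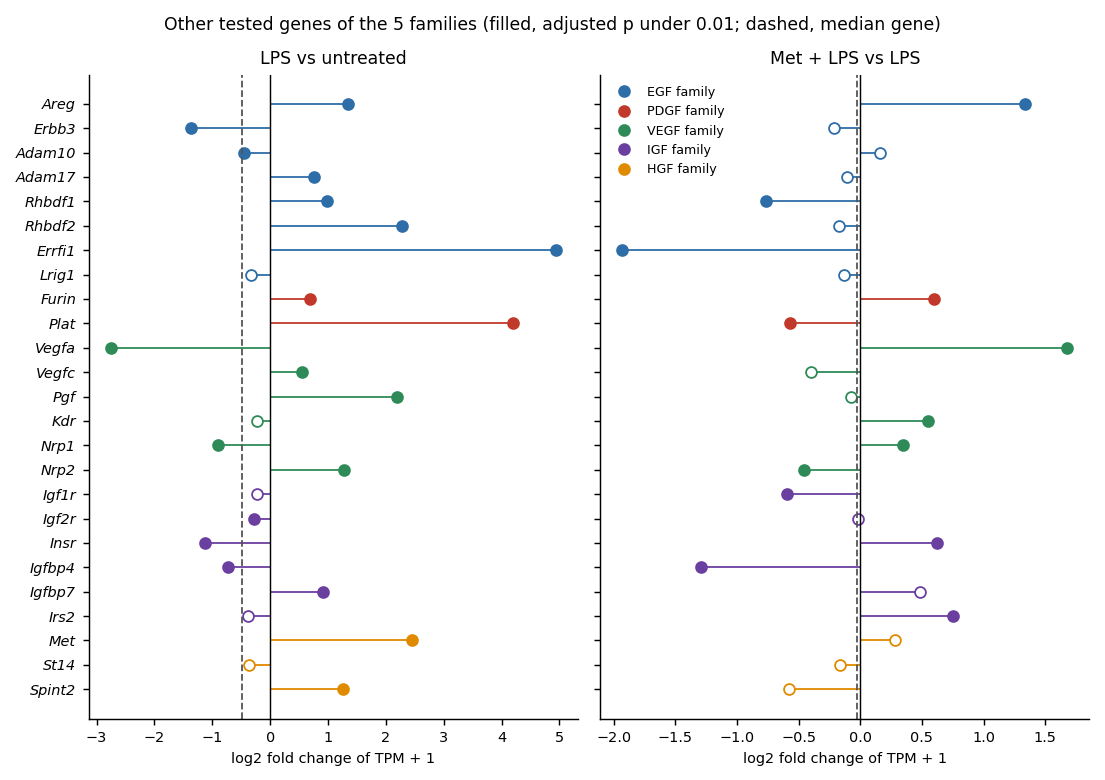
Log2 fold change of TPM + 1 (horizontal axes) of the 25 other tested genes of the 5 families for LPS vs. untreated (left) and Met + LPS vs. LPS (right), coloured by family, filled where the adjusted p-value in limma was under 0.01, with a dashed line at the median of all tested genes. Errfi1 (4.94 and -1.93) and Vegfa (-2.75 and 1.68) lie far out on both sides, in opposite directions.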

How the data were processed

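RNA-seq was measured in 6 libraries of mouse BMDMs, grouped from the sample labels, whose letters A and B are numbered here as replicates 1 and 2. The authors made poly-A libraries, aligned single-end reads to GRCm38 (Ensembl annotation) with STAR 2.6.1d, handled them with SAMtools 1.9, counted genes with featureCounts (Subread 1.6.3) and deposited TPM values without pooling replicates. The strand setting of the counting and the conversion to TPM are not given in the sources used here. The authors tested counts with DESeq2, which was not used because the deposited unit is TPM. TPM fixes each library's total, so values are shares of it and a difference in total RNA per cell is not visible.

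The 10 genes, the family lists and the marker lists were chosen with earlier results of these data known. The 12755 genes that reached 1 TPM in 2 or more of 6 libraries entered 1 fit of all libraries on log2(TPM + 1) by limma 3.58.1, run in R 4.3.3, eBayes with a trend, no covariate, leaving 3 residual degrees of freedom. The named genes are the 10, the listed direct partners (Egfr, Erbb4, Pdgfra, Vegfa, Kdr, Nrp1, Igf1r, Met, Adam17 and Rhbdf2) and any list gene past both cut-offs. Nrp2 is given beside Nrp1 for its opposite direction and is not among the recomputed values of the named partners. Multiplied by GENCODE exon length (54495 genes matched), 96.8% to 97.1% of values under 1000 reads in a library were whole reads within 0.01. The Hbegf length was set to 4746 bases, which gave whole reads. Floors cover counting error only, since reads carry no molecular identifiers. Alternatives were median-ratio rescaling, a minimum of 5 TPM, no minimum, a pseudocount of 0.1, the compared groups only, a replicate block, no trend, a cut-off of 0.05, voom on recovered reads and leaving out each library. Voom after rescaling was added after seeing the data. The code was also run on simulated reads in which far fewer genes changed than here. That run does not measure the error rates in these data. Tables and plots used Python 3.11.15, numpy 2.4.6, pandas 2.3.3 and matplotlib 3.10.9.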

Additional observations from a re-analysis of the deposited data

How the results depend on the processing

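Of 366 log2 fold changes of the 9 tested genes recomputed under the alternatives, 317 kept their direction and side of the cut-off, 17 newly passed, 26 no longer passed and 6 reversed. The 6 reversals came with the median-ratio rescaling, where Igf1 was 0.34 in LPS and 0.37 in Met + LPS relative to untreated and Pdgfa 0.15 in the latter, and with voom after rescaling (0.34, 0.37 and 0.16). Of 386 values of the named partners 7 reversed, with Kdr at 0.27, Igf1r at 0.14 and Irs2 at 0.081 for LPS vs. untreated after rescaling (0.28, 0.21 and 0.090 in voom after rescaling), and Pgf for Met + LPS vs. LPS between -0.18 and 0.023 on leaving out 1 library. The 2 calls among the members for Met + LPS vs. LPS became 1 with a pseudocount of 0.1, with no filter, with the compared groups only and with the replicate block, and 5 at a cut-off of 0.05, in voom and in voom after rescaling. A minimum of 5 TPM left Hbegf, Pdgfc, Flt1 and Pdgfrb untested, so calls fell to 0 for Met + LPS vs. LPS (0 past both cut-offs) and to 5 in each comparison with untreated BMDMs. Members past both cut-offs for LPS vs. untreated numbered 2 with a pseudocount of 0.1, in voom and in voom after rescaling, where all tested genes past both numbered 1512, 1595 and 1378 against 776. For Met + LPS vs. LPS, members past both numbered 4 in voom and 3 in voom after rescaling, and all tested genes 1414 and 1417 against 1056. All tested genes that passed that comparison numbered 2662 with the compared groups only, against 4156. Leaving out 1 library gave 1 to 2 member calls for Met + LPS vs. LPS, 5 to 6 for Met + LPS vs. untreated and 2561 to 2759 genes for Met + LPS vs. LPS, where a group has 1 library, assumed to vary like the others. The deviations of same-numbered replicates correlated at -0.00365 to 0.0284 between groups. Such values do not show that the libraries were unpaired, and no source says whether a letter was shared between groups. With the replicate block as a term Flt1 for Met + LPS vs. LPS had -0.61 (adjusted p-value 0.0167 in limma). Among the 10 genes depth limits Ereg and the untreated values of Pdgfrb most, and among the partners those of Areg, Plat and Pgf. The cause of these changes was not tested beyond what fewer tested genes or fewer libraries bring by construction.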

Other observations

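Of the 54 further family genes, 29 stayed under the minimum and were not tested, and 7 of these had no reads in any library. Among the others, Nrg2, which encodes neuregulin 2, had 0.598 and 0.770 TPM in untreated BMDMs, 0.128 and 0.178 TPM after LPS and 0.129 and 0 TPM in Met + LPS, on at most 17 reads. Nrg4, another neuregulin gene, had 0.346 and 0.506 TPM in untreated, 0.519 and 0.496 TPM in LPS and 1.154 and 0.856 TPM in Met + LPS libraries, with both Met + LPS libraries highest. Pdgfrl, a PDGF receptor-like gene, had 0.126 and 0.0447 TPM in untreated, 0.588 and 1.096 TPM in LPS and 0.254 and 0.361 TPM in Met + LPS libraries, the same order of groups as Pdgfrb, on at most 25 reads.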
